A study of Mus musculus with 6 samples.

Results

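The 39 genes described here form an interferon response module, a list of mouse genes known to be induced by interferon. They were chosen by name, but with earlier results of these data known. Each of the 39 symbols matched 1 row among the 37309 genes of the deposited table. They were followed in 6 RNA-seq libraries, 2 per genotype, of aortic smooth muscle (descending part) taken from mice at embryonic day 14.5. The knockout libraries came from JAG1 lox/lox Cre+ cells, the heterozygous libraries from JAG1 lox/+ Cre+ cells and the wildtype libraries from JAG1 lox/lox Cre- cells. Jag1 encodes a ligand of the Notch receptors, and the study asked what its loss does in the smooth muscle wall of the aorta. All 3 genotypes carried at least 1 lox allele, and Cre was present in knockout and heterozygous cells but not in wildtype cells, so that against wildtype the Jag1 genotype and Cre cannot be told apart. The promoter driving Cre, the exons deleted, the sex of the embryos and whether embryos were pooled are not given in the sources used here. Nothing states that the 2 libraries of a genotype came from separate embryos, so the p-values measure the spread between these libraries, which may be technical.

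Cells sense foreign or misplaced nucleic acid with cytosolic receptors and secrete type I interferon, which binds the receptor chains Ifnar1 and Ifnar2 on the same and on neighbouring cells. The receptor activates a complex that includes Stat2 and Irf9 and binds the interferon-stimulated response element (ISRE) in gene promoters and switches on antiviral effectors, the sensors themselves and inhibitors that end the response. Type II interferon acts at the gamma-activated site (GAS) instead, and drives guanylate-binding and immunity-related GTPases most strongly.

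The promoter windows of 5 members are shown because these genes carry ISRE letters close to their start sites and were each called lower in knockout than in heterozygous libraries. Each window runs from 250 bases before to 50 bases after the annotated start, 5′ to 3′ on the gene's strand, and comes from RefSeq on GRCm38.p6, a later build than the mm9 assembly of the deposited counts. Capitals mark matches to the ISRE core GAAANNGAAA on either strand, in which N is any base. The windows are chr4:156200769-156201068, minus strand, for Isg15, chr19:34640639-34640938, plus strand, for Ifit1, and chr19:34583279-34583578, plus strand, for Ifit3. Those of Bst2 and Oas1a are chr8:71537423-71537722 and chr5:120907476-120907775, both on the minus strand.
Isg15: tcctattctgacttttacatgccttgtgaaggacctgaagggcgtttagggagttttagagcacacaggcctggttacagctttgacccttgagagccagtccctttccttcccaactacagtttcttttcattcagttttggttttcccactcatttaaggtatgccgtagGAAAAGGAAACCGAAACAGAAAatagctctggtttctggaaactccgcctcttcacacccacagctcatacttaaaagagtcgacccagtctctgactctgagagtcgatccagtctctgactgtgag
Ifit1: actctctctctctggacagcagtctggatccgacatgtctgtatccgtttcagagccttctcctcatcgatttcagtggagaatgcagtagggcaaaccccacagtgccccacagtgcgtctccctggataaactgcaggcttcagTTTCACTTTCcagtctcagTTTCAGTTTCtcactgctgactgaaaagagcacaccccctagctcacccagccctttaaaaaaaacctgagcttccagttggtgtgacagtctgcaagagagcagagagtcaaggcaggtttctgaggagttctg
Ifit3: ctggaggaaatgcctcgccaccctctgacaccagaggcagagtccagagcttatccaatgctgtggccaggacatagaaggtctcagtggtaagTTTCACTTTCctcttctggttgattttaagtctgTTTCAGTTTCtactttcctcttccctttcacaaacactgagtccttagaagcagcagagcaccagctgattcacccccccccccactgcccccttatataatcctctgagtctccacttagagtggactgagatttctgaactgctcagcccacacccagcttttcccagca
Bst2: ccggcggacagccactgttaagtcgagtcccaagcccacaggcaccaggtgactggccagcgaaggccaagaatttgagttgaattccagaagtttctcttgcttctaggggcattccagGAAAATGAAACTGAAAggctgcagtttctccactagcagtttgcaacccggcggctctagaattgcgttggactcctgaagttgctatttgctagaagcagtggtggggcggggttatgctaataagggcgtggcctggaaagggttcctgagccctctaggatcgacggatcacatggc
Oas1a: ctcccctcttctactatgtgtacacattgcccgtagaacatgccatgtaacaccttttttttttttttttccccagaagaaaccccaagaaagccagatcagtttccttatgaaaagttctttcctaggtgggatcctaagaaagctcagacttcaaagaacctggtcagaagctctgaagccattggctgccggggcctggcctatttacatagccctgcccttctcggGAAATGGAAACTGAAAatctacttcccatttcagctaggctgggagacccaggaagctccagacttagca

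In Isg15 3 matches overlapped in 1 run, between 78 and 57 bases before the start, and Bst2 and Oas1a each held 2 overlapping matches. Ifit1 and Ifit3, which lie close together on chromosome 19, held the same pair of 10-base stretches in the same order, TTTCACTTTC and then TTTCAGTTTC, at different distances from the start. A RefSeq window was found for 30 of the 39 members, and 16 of these 30 held an ISRE core, against 3.44% of all 32851 windows of the same length. The GAS letters TTCNNNGAA, searched on both strands, occurred in 7 of the 30 members, against 8.3% of all windows. Both motifs occurred in 5 members, which were Bst2, Eif2ak2, Ifitm3, Igtp and Oas1a, and matches can overlap each other. Of the 25 ISRE matches, 20 ended before the start site and 5 began at or after it. The 14 members with a window but no match included Irf7, Irf9, Oasl2, Ifi44 and Xaf1. A match is a description of letters, not a measured binding site. Knockout means were below heterozygous means in all 30. The limma fit described below called 16 of the 16 members with a match lower in knockout than in heterozygous libraries and 11 of the 14 without one, against 8.09% of all genes tested.

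**Figure D1:**
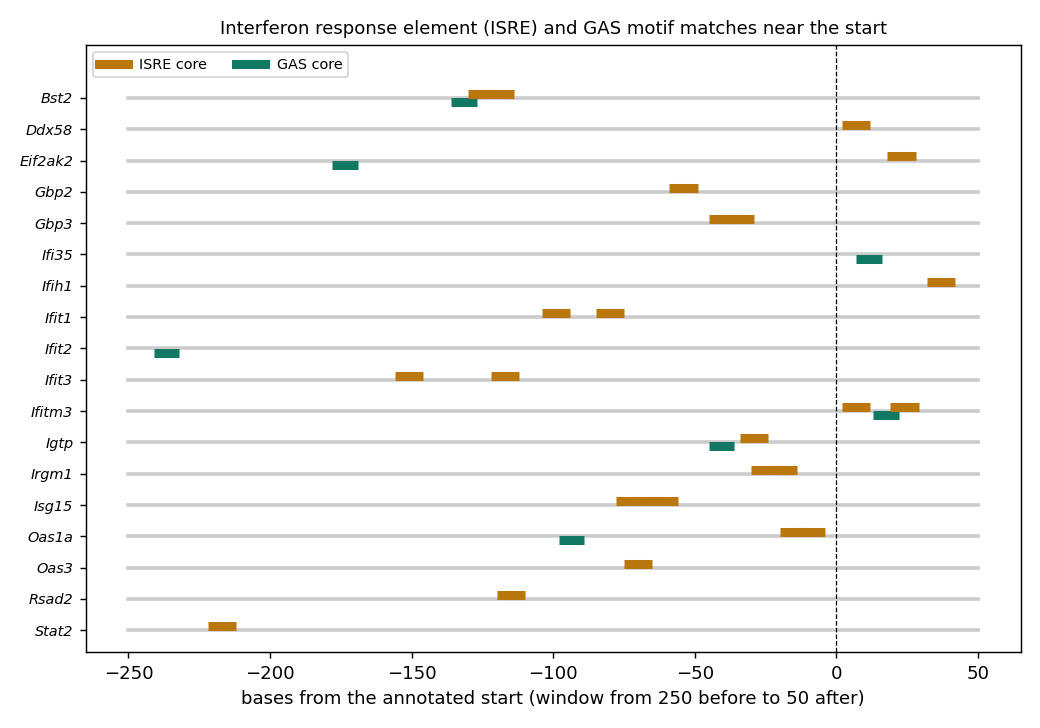
Positions of ISRE and GAS letter matches in the RefSeq promoter windows of the interferon genes that hold a match, with distance from the annotated start site in bases on the x axis and 1 gene per line. Of 25 ISRE matches, 20 lie before the start site.

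Jag1 itself checked the labels: its scaled count was 19.9 and 35.4 in knockout libraries, 492 and 584 in heterozygous libraries, and 1965 and 1885 in wildtype libraries. A scaled count is the number of reads in a gene divided by the authors' size factor for the library. The 6 libraries held 17323962 to 28123670 reads in genes. The smooth muscle markers were present in all 6, with Acta2, smooth muscle actin, between 79073 and 120179. Macrophage and leukocyte markers were also present, and moved with genotype. Their summed scaled count, over 21 of 22 listed genes, was 14734 and 13994 in knockout libraries, 73054 and 67936 in heterozygous libraries, and 35336 and 35569 in wildtype libraries. Limma called all 21 lower in knockout than in wildtype libraries, against 7.1% of all genes tested. It called 18 higher in heterozygous than in wildtype libraries (5.33% of all genes). All 21 were called lower in knockout than in heterozygous libraries (8.09% of all genes). The lowest defining marker was Aif1, at 0.906 and 0 in knockout libraries, 30.1 and 20.4 in heterozygous libraries, and 21.7 and 16.7 in wildtype libraries, while Csf1r, the receptor of a macrophage growth factor, stayed at 1003 or more in every library. Y-linked transcripts separated the knockout libraries too: Ddx3y was 5.44 and 12.2 there, against 973 and 999 in heterozygous and 1102 and 1207 in wildtype libraries. The part of leukocyte content and of Y-linked status in the results below was not tested. In bulk RNA, fewer cells of a type and less RNA per cell cannot be told apart.

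Interferon genes were lower in knockout and higher in heterozygous libraries, each against wildtype. The summed scaled count of the 39 genes was 13102 and 12306 in knockout libraries, 32617 and 33187 in heterozygous libraries, and 19670 and 18678 in wildtype libraries. A gene was called when limma, fitted to log2(scaled count + 1) over 15781 genes, gave a Benjamini-Hochberg adjusted p under 0.05, and all log2 changes below are on that scale, which understates the change of low genes. Between knockout and wildtype libraries, 29 of the 39 were called lower, against 7.1% of all genes tested. None was called higher by limma, against 5.42% of all genes, by edgeR or by DESeq2, and none was higher at an unadjusted p under 0.05 in limma. The median log2 change of the 39 was -1.0, with a range of -3.06 to 0.07, against -0.00 over all genes. Without wildtype library 1 fewer members and fewer of all genes were called lower, and the median log2 change of the 39 was -0.95. Between heterozygous and wildtype libraries, 27 were called higher, against 5.33% of all genes. With no mean trend in the fit 17 were called higher, against 3.81% of all genes. With 1 heterozygous or wildtype library left out, fewer members and fewer of all genes were called higher. The median log2 change was then 0.94 to 1.00. None was called lower by limma, against 2.74% of all genes, by edgeR or DESeq2, or was lower at an unadjusted p under 0.05 in limma. Over all 6 libraries the median log2 change was 0.93 with a range of 0.19 to 2.00. Both comparisons share the wildtype libraries.

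The direct comparison of knockout with heterozygous libraries, which share Cre, called 35 of the 39 lower, against 8.09% of all genes. The median log2 change was -2.02, with a range of -4.56 to -0.17. No member was called higher by limma, against 4.39% of all genes, by edgeR or DESeq2, or was higher at an unadjusted p under 0.05 in limma. The other 4, Ifit2, Oasl1, Herc6 and Mx1, were called in no comparison. On the ratio of group means, the median member stood at 0.50 for knockout over wildtype, 1.99 for heterozygous over wildtype and 0.247 for knockout over heterozygous. The order of group means was heterozygous, wildtype, knockout in 36 members, an order found in 19.7% of all tested genes. In 33 members all 6 libraries kept that order with no overlap between groups, as they did in 6.46% of all tested genes. Ifit2, Herc6 and Samd9l had their lowest mean in wildtype libraries.

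Counted singly, the knockout values lay below the wildtype values with no overlap in 33 members (25.4% of all genes) and above them in 1, Samd9l (24.8% of all genes). The heterozygous values lay above the wildtype values in all 39 (28.8% of all genes) and below them in 0 (26.0% of all genes), and the knockout values lay below the heterozygous values in 38 (25.0% of all genes). Against wildtype, 22 members were called both higher in heterozygous and lower in knockout libraries, against 262 genes or 1.66% of all those tested. Another 5 were called only in heterozygous, 7 only in knockout and 5 in neither, classes that were not counted over all genes. All 39 passed the filter of a scaled count of 10 in 2 or more libraries, Oasl1 and Mx1 only through the heterozygous libraries and Mx2 through these and 1 wildtype library. Oasl1 and Mx1 were thus tested only because they were high in heterozygous libraries. The 39 above wildtype and the 38 below heterozygous values include them, so these counts are no support for their direction.

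**Figure D2:**
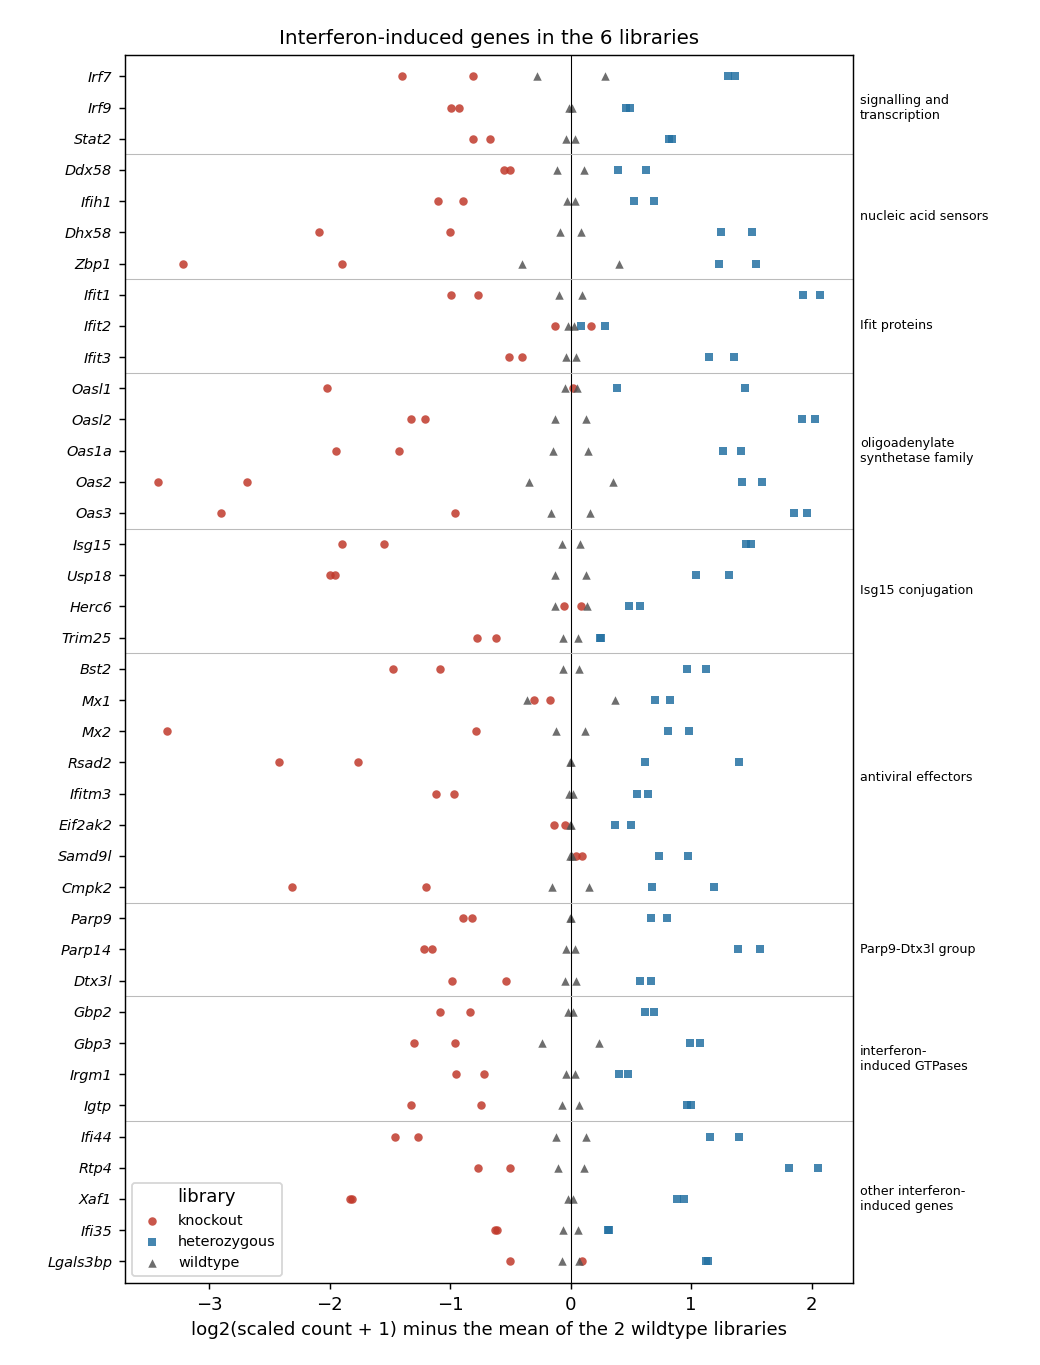
Level of each of the 39 interferon genes in the 2 knockout, 2 heterozygous and 2 wildtype libraries, as log2(scaled count + 1) minus the mean of the wildtype libraries on the x axis, with 1 point per library and genes grouped by role down the page. Heterozygous values exceed wildtype values in all 39 genes, including Oasl1 and Mx1, which passed the filter only through heterozygous libraries. Knockout values lie below wildtype values without overlap in 33.

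**Figure D3:**
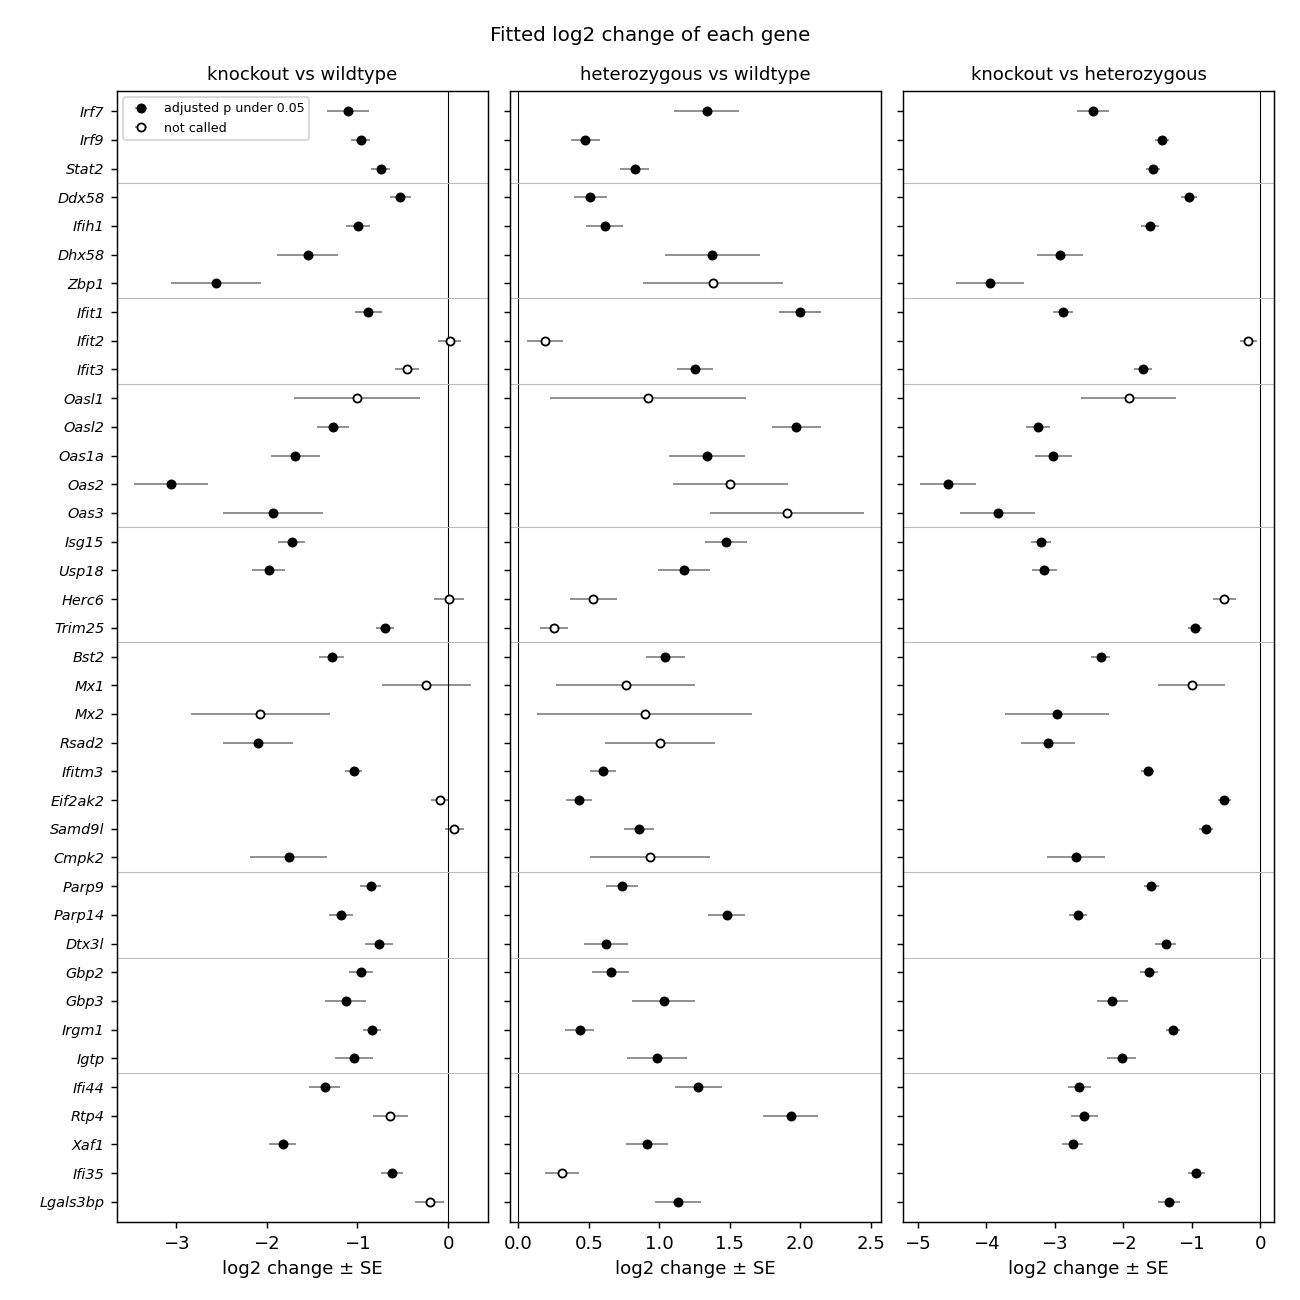
Log2 change ± SE of each interferon gene in the 3 comparisons, knockout against wildtype, heterozygous against wildtype and knockout against heterozygous, with called genes filled. The 3 panels have their own x axes, and the medians are -1.0, 0.93 and -2.02.

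The shares of all genes tested stand beside each count by role below. They were 7.1% lower in knockout and 5.33% higher in heterozygous than in wildtype libraries. For knockout lower than heterozygous libraries the share was 8.09%. The order heterozygous, wildtype, knockout without overlap was found in 6.46% of all tested genes. The 3 signalling members that carry the response to the nucleus were called in all 3 comparisons. Stat2, a subunit of the ISRE-binding complex, was 385 and 350 in knockout libraries, 1098 and 1078 in heterozygous libraries, and 598 and 629 in wildtype libraries. The 3 groups were far apart beside the spread within each. The change was -0.74 ± 0.10 against wildtype in knockout (limma, adjusted p = 0.00152) and 0.83 ± 0.10 in heterozygous libraries (adjusted p = 0.00146). Irf9, the DNA-binding subunit of the same complex, was 314 and 329 in knockout, 861 and 883 in heterozygous, and 633 and 621 in wildtype libraries. It fell in knockout by -0.96 ± 0.10 (limma, adjusted p = 0.0003) and was higher in heterozygous libraries by 0.47 ± 0.10 (adjusted p = 0.02). Irf7, the factor that amplifies interferon production, was 92.4 and 61.1 in knockout, 405 and 421 in heterozygous, and 198 and 134 in wildtype libraries. Irf7 was the most variable of the 3 between wildtype libraries. It was lower in knockout by -1.10 ± 0.23 (limma, adjusted p = 0.0127) and higher in heterozygous by 1.34 ± 0.23 (adjusted p = 0.00725). Without wildtype library 1 the knockout call of Irf7 was lost (adjusted p = 0.146), as it was with only the groups compared or no mean trend (0.05 after rounding and 0.0669). The heterozygous call of Irf7 was lost without heterozygous library 1 or 2 or wildtype library 2 (adjusted p 0.0907 to 0.106), and that of Irf9 without any one of the 4 heterozygous and wildtype libraries (0.179 to 0.216), and both with no mean trend (0.0559 and 0.054).

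All 4 nucleic acid sensors were lower in knockout than in wildtype libraries, and 3 were higher in heterozygous libraries. Ddx58, which encodes the RNA sensor RIG-I, was 810 and 781 in knockout, 1509 and 1773 in heterozygous, and 1239 and 1063 in wildtype libraries. Ifih1, which encodes the long double-stranded RNA sensor MDA5, was 160 and 139 in knockout, 432 and 486 in heterozygous, and 307 and 293 in wildtype libraries. Neither gene's groups overlapped. Dhx58, which encodes LGP2, a relative that tunes both, was 24.5 and 11 in knockout, 120 and 144 in heterozygous, and 53.4 and 47.0 in wildtype libraries. Zbp1, a sensor of left-handed nucleic acid, was 4.53 and 1.22 in knockout, 47.4 and 58.9 in heterozygous, and 26.3 and 14.6 in wildtype libraries. In knockout libraries Zbp1 rested on few reads, without overlap with the other groups. Against wildtype the knockout changes were -0.53 ± 0.12 for Ddx58, -1.0 ± 0.13 for Ifih1, -1.55 ± 0.34 for Dhx58 and -2.56 ± 0.50 for Zbp1 (limma, adjusted p 0.0164, 0.00108, 0.0147 and 0.00857). The heterozygous changes were 0.51 ± 0.12 for Ddx58, 0.61 ± 0.13 for Ifih1 and 1.38 ± 0.34 for Dhx58 (adjusted p 0.0273, 0.0218 and 0.0364), and Zbp1 was not called (0.157). Each of these 3 heterozygous calls was lost without any one of the 4 libraries compared, at adjusted p 0.0857 to 0.320, 0.123 to 0.256 and 0.178 to 0.304, and with no mean trend (0.111, 0.0564 and 0.108), that of Dhx58 also with no filter (0.0522). The knockout calls of Ddx58 and Dhx58 were lost without wildtype library 1 or 2 (0.0509 to 0.202 and 0.0852 to 0.127) and with no mean trend (0.0775 and 0.0604), that of Dhx58 also with only the groups compared (0.0555), and that of Zbp1 without wildtype library 1 (0.112).

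The Ifit family, whose proteins bind foreign RNA and block its translation, moved unevenly. Ifit1 was 88.8 and 75.8 in knockout, 640 and 582 in heterozygous, and 163 and 142 in wildtype libraries. Ifit3 was 183 and 170 in knockout, 621 and 539 in heterozygous, and 249 and 235 in wildtype libraries. Ifit2, their neighbour on chromosome 19, was 646 and 796 in knockout, 865 and 754 in heterozygous, and 697 and 720 in wildtype libraries. Ifit2 was the only 1 of the 3 whose knockout libraries overlapped both other groups, and it was called in no comparison (limma, adjusted p 0.954, 0.531 and 0.456). Ifit1 had the largest heterozygous change of the 39, 2.00 ± 0.15 (limma, adjusted p = 0.000145), and was lower in knockout by -0.88 ± 0.15 (0.00409), a call lost without wildtype library 1 (0.0676). Ifit3 was higher in heterozygous libraries by 1.25 ± 0.13 (limma, adjusted p = 0.00051) and missed the threshold in knockout (0.05 after rounding). Ifit3 and its near-identical copy Ifit3b may share reads, which makes its count uncertain.

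Of the 5 oligoadenylate synthetase genes, whose products make the messenger that activates RNase L, 4 were lower in knockout and 2 higher in heterozygous than in wildtype libraries. Oas2 was 2.72 and 1.22 in knockout, 63.0 and 70.9 in heterozygous, and 29.4 and 17.8 in wildtype libraries. The knockout values stand for 3 and 1 reads. This was the largest fall of the 39 against wildtype, -3.06 ± 0.41 (limma, adjusted p = 0.00108), and against heterozygous libraries, -4.56 ± 0.41 (adjusted p = 7.56e-05), on a scale where such low counts depend on the added 1. Oas1a was 14.5 and 9.78 in knockout, 109 and 98.6 in heterozygous, and 44.9 and 36.6 in wildtype libraries. Oas3 was 1.81 and 9.78 in knockout, 74.8 and 80.6 in heterozygous, and 22.4 and 17.8 in wildtype libraries. Oas3 had the widest spread between knockout libraries among the 4 called genes. Oasl2, an Oas-like protein, was 32.6 and 35.4 in knockout, 343 and 319 in heterozygous, and 91.3 and 76.3 in wildtype libraries. Its sister Oasl1 was 8.16 and 1.22 in knockout, 23.7 and 10.8 in heterozygous, and 7.74 and 8.36 in wildtype libraries, with no call in any comparison. The ratio of Oasl2 in heterozygous over wildtype libraries, 3.95, was second to that of Ifit1, at 4.01. The knockout changes were -1.68 ± 0.27 for Oas1a, -1.27 ± 0.17 for Oasl2 and -1.93 ± 0.55 for Oas3 (limma, adjusted p 0.00306, 0.00126 and just under 0.05). The heterozygous changes were 1.34 ± 0.27 for Oas1a (adjusted p = 0.0155) and 1.97 ± 0.17 for Oasl2 (0.000269). Any one of the 4 heterozygous and wildtype libraries, left out, removed the Oas3 call (0.119 to 0.262), as did 7 of the 11 other settings. Leaving out wildtype library 1 removed the knockout call of Oas1a (0.0504), and any one of the same 4 libraries its heterozygous call (0.0868 to 0.189).

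Isg15, an interferon-induced ubiquitin-like protein that ligases attach to other proteins, was 95.2 and 74.5 in knockout, 774 and 792 in heterozygous, and 296 and 267 in wildtype libraries. Usp18, the protease that removes it and damps receptor signalling, was 29.0 and 28.1 in knockout, 238 and 289 in heterozygous, and 126 and 106 in wildtype libraries. Both were cleanly ordered. Isg15 was lower in knockout by -1.72 ± 0.15 (limma, adjusted p = 0.00011) and higher in heterozygous by 1.48 ± 0.15 (0.000484). Usp18 was lower in knockout by -1.98 ± 0.18 (adjusted p = 0.000153) and higher in heterozygous by 1.18 ± 0.18 (0.00411), the second being lost without heterozygous or wildtype library 2 (0.0731 to 0.0962). Trim25, a ubiquitin ligase that activates RIG-I, was 839 and 939 in knockout, 1710 and 1718 in heterozygous, and 1505 and 1379 in wildtype libraries. Only its knockout fall was called, -0.70 ± 0.10 (limma, adjusted p = 0.0016), with 0.206 for heterozygous libraries. Herc6, the main Isg15 ligase of mice, was 105 and 116 in knockout, 164 and 154 in heterozygous, and 99.9 and 120 in wildtype libraries. Its knockout and wildtype values overlapped, and the heterozygous values, above both, were not called (limma, adjusted p = 0.094).

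Of the 8 antiviral effectors, 4 were lower in knockout and 4 higher in heterozygous than in wildtype libraries, and 7 were lower in knockout than in heterozygous libraries. Bst2, the tetherin that holds budding virus at the surface, was 384 and 293 in knockout, 1787 and 1596 in heterozygous, and 856 and 782 in wildtype libraries. Ifitm3, which blocks viral fusion in endosomes, was 1288 and 1429 in knockout, 4371 and 4104 in heterozygous, and 2760 and 2827 in wildtype libraries. Both changed in all 3 comparisons. Against wildtype, Bst2 changed by -1.28 ± 0.14 in knockout and 1.04 ± 0.14 in heterozygous libraries (limma, adjusted p 0.000353 and 0.00193). Ifitm3 changed by -1.04 ± 0.09 in knockout and 0.60 ± 0.09 in heterozygous libraries (adjusted p 0.000123 and 0.00369). The heterozygous call was lost for Bst2 without heterozygous library 1 (0.0562) and for Ifitm3 without any one of the 4 heterozygous and wildtype libraries (0.0560 to 0.0898).

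A pair of effectors was high in heterozygous libraries with no called change in knockout. Eif2ak2, the kinase PKR that halts translation, was 1190 and 1271 in knockout, 1692 and 1854 in heterozygous, and 1308 and 1317 in wildtype libraries. Samd9l, an inhibitor of viral translation, was 1022 and 989 in knockout, 1597 and 1889 in heterozygous, and 966 and 954 in wildtype libraries. The knockout libraries of both stood at 0.937 and 1.05 of wildtype (limma, adjusted p 0.599 and 0.754). The heterozygous changes were 0.43 ± 0.09 for Eif2ak2 and 0.85 ± 0.11 for Samd9l (adjusted p 0.0221 and 0.0013). Eif2ak2 lost its heterozygous call without any one of the 4 heterozygous and wildtype libraries (0.123 to 0.277) and with no mean trend (0.0878), and its fall in knockout against heterozygous libraries without heterozygous library 2 (0.103).

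The remaining effectors had low counts. Rsad2, which encodes viperin, was 6.34 and 3.67 in knockout, 64.8 and 37.3 in heterozygous, and 24.0 and 24.0 in wildtype libraries. Cmpk2, its neighbour on chromosome 12 and the kinase that supplies its nucleotide substrate, was 9.06 and 3.67 in knockout, 52.0 and 36.1 in heterozygous, and 24.8 and 19.9 in wildtype libraries. Each was ordered without overlap and called in knockout but not in heterozygous libraries, at -2.10 ± 0.39 for Rsad2 and -1.76 ± 0.43 for Cmpk2 (limma, adjusted p 0.00673 and 0.0249). Those calls were lost without wildtype library 1 or 2 for Rsad2 (0.0653 to 0.0666) and without any one of the 4 heterozygous and wildtype libraries for Cmpk2 (0.0593 to 0.193), also lost with DESeq2, with only the groups compared and with no mean trend (0.0565 to 0.074). The fall of Cmpk2 against heterozygous libraries was lost without heterozygous library 1 (0.0585). Mx2, a dynamin-like GTPase, was 0 and 4.89 in knockout, 19.2 and 16.8 in heterozygous, and 10.1 and 8.36 in wildtype libraries. It was called only against heterozygous libraries, at -2.97 ± 0.76 (limma, adjusted p = 0.0336), and not without any one of the 4 heterozygous and wildtype libraries (0.0697 to 0.221), nor with quantile normalization, only the groups compared or no mean trend (0.0508 to 0.0915). Mx1, its paralog, was 5.44 and 4.89 in knockout, 11.9 and 10.8 in heterozygous, and 4.64 and 8.36 in wildtype libraries, with no call. Knockout and wildtype values of Mx1 overlapped.

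Parp9, Dtx3l and Parp14 lie side by side on chromosome 16, and the first 2 encode a complex that modifies chromatin and viral proteins. Parp9 was 221 and 232 in knockout, 652 and 717 in heterozygous, and 409 and 412 in wildtype libraries. Dtx3l was 244 and 178 in knockout, 562 and 529 in heterozygous, and 365 and 343 in wildtype libraries. Parp14, an ADP-ribosyltransferase, was 93.4 and 89.2 in knockout, 547 and 620 in heterozygous, and 214 and 203 in wildtype libraries. All 3 were ordered without overlap and called in every comparison, Parp14 with the largest changes, -1.18 ± 0.13 in knockout and 1.48 ± 0.13 in heterozygous libraries (limma, adjusted p 0.000426 and 0.000288). Parp9 changed by -0.85 ± 0.11 and 0.73 ± 0.11 (adjusted p 0.00104 and 0.00388), and Dtx3l by -0.76 ± 0.16 and 0.62 ± 0.16 (0.011 and 0.0404), in knockout and in heterozygous libraries. The heterozygous calls of Parp9 and Dtx3l were lost without any one of the 4 heterozygous and wildtype libraries (0.0531 to 0.0919 and 0.208 to 0.322), that of Dtx3l also with quantile normalization or no mean trend (0.0502 and 0.121). The knockout call of Dtx3l was lost without wildtype library 1 or 2 (0.0771 to 0.118) and with no mean trend (0.0539). The Parp9 and Dtx3l genes overlap, so without a stated strand rule their reads cannot be fully told apart.

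The 4 GTPases, which attack vacuoles that hold pathogens and respond most to type II interferon, were each called in every comparison. Irgm1 was 982 and 1154 in knockout, 2511 and 2644 in heterozygous, and 1953 and 1854 in wildtype libraries. Gbp2 was 145 and 172 in knockout, 475 and 499 in heterozygous, and 314 and 304 in wildtype libraries. Both were tight within groups. Igtp was 55.3 and 36.7 in knockout, 188 and 184 in heterozygous, and 89.0 and 98.3 in wildtype libraries. Gbp3 was 39 and 30.6 in knockout, 153 and 162 in heterozygous, and 90.6 and 64.8 in wildtype libraries. None of the 4 had overlapping groups. The knockout changes were -0.84 ± 0.10 for Irgm1, -0.96 ± 0.13 for Gbp2, -1.04 ± 0.21 for Igtp and -1.13 ± 0.22 for Gbp3 (limma, adjusted p 0.000737, 0.00121, 0.0116 and 0.00933). In heterozygous libraries they were 0.44 ± 0.10, 0.66 ± 0.13, 0.98 ± 0.21 and 1.03 ± 0.22 in the same order of genes (0.0318, 0.0145, 0.022 and 0.0212). All 4 heterozygous calls were lost without any one of the 4 libraries compared, at 0.189 to 0.306, 0.129 to 0.182, 0.131 to 0.204 and 0.0568 to 0.237. With no mean trend in the fit, the heterozygous calls of Irgm1, Igtp and Gbp3 were lost as well (0.123, 0.0617 and 0.0539). The knockout calls of Igtp and Gbp3 were lost without wildtype library 1 (0.0751 for Igtp and 0.125 for Gbp3), and that of Igtp also without wildtype library 2 (0.118).

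Among the other members, Xaf1, a pro-apoptotic partner of the inhibitor XIAP, was 40.8 and 40.3 in knockout, 271 and 281 in heterozygous, and 144 and 148 in wildtype libraries. Ifi44, a negative regulator of the response, was 55.3 and 63.5 in knockout, 345 and 408 in heterozygous, and 168 and 141 in wildtype libraries. Both were ordered without overlap. Xaf1 changed by -1.82 ± 0.15 in knockout and 0.91 ± 0.15 in heterozygous libraries (limma, adjusted p 9.07e-05 and 0.00558), and Ifi44 by -1.36 ± 0.17 and 1.28 ± 0.17 (0.000716 and 0.00174). The heterozygous call of Xaf1 was lost without any one of the 4 heterozygous and wildtype libraries (0.0718 to 0.101) and that of Ifi44 without heterozygous library 2 (0.0516). Ifi35, an adaptor with a partner in Nmi, was 193 and 196 in knockout, 369 and 373 in heterozygous, and 311 and 286 in wildtype libraries. It was called in knockout only, -0.62 ± 0.12 (limma, adjusted p = 0.00854), and not without wildtype library 1 or 2 (0.0633 to 0.125).

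Rtp4 and Lgals3bp were called in heterozygous but not in knockout libraries. Rtp4, a chaperone of receptors at the cell surface, was 42.6 and 35.4 in knockout, 216 and 256 in heterozygous, and 65.8 and 56.4 in wildtype libraries. Its heterozygous change was 1.93 ± 0.20 (limma, adjusted p = 0.000495), and in knockout the adjusted p was 0.0678. Lgals3bp, a secreted galectin ligand and the member with the highest mean scaled count, which is not corrected for length, was 3248 and 2152 in knockout, 6631 and 6720 in heterozygous, and 3206 and 2899 in wildtype libraries. The knockout libraries of Lgals3bp lay on either side of both wildtype libraries. In heterozygous libraries it was higher by 1.13 ± 0.16 (limma, adjusted p = 0.00287), a call lost without heterozygous library 1 or 2 (0.0566 to 0.0582).

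Set directly against heterozygous libraries, the knockout libraries were lower in more members than against wildtype. Of the 35 calls, 32 held under every alternative setting in which the gene was tested, left-out libraries included (17 settings, or 16 for Rsad2 and Zbp1, which a stricter filter of 50 removed), against 16 of 29 calls in knockout and 8 of 27 in heterozygous libraries against wildtype. The 8 that held in heterozygous libraries were Ifit1, Ifit3, Isg15, Oasl2, Parp14, Rtp4, Samd9l and Stat2. The smallest p of the 35 belonged to Isg15, at -3.20 ± 0.15 (limma, adjusted p = 1.96e-06), and Parp14 followed at -2.66 ± 0.13 (3.05e-06). The smallest fall called was that of Eif2ak2, -0.53 ± 0.09 (adjusted p = 0.00547), and the largest that of Oas2. Samd9l fell by -0.79 ± 0.11 (0.000969) and Lgals3bp by -1.34 ± 0.16 (0.000539), and thus 6 members with no called fall against wildtype were called here, the others being Ifit3, Rtp4, Eif2ak2 and Mx2.

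Per length, on the authors' mean RPKM, Ifitm3 was the highest member, at 71.9 in knockout, 224 in heterozygous and 148 in wildtype cells. Next were Lgals3bp, at 32.5, 80.5 and 36.8, and Bst2, at 15.9, 79.5 and 38.5, in the same order of genotypes, with Bst2 above Lgals3bp in wildtype cells only. Isg15 ranked 8 among the members in knockout cells (4.03 RPKM) and 4 in both heterozygous (37.2) and wildtype cells (13.4). The median member stood at 0.714, 3.57 and 1.44 RPKM. In knockout cells 21 of the 39 were below 1 RPKM, against 9 in heterozygous and 17 in wildtype cells. At 10 RPKM or more there were 3, 8 and 4 genes.

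The interferons themselves were listed at 0. Of 17 ligand and receptor genes, 11 ligands, among them Ifnb1, Ifng and Ifna4, had a 0 in all 6 libraries, where 3 reads would correspond to a scaled count of 2.32 to 3.67. Trex1 and Psmb9, which many cell types express, were also listed at 0 throughout, so these zeros are given only as listed. Ifnar1, a type I receptor chain, was 2162 and 1738 in knockout, 2025 and 2045 in heterozygous, and 1818 and 1893 in wildtype libraries. Ifnar2, its partner, was 623 and 541 in knockout, 760 and 778 in heterozygous, and 576 and 651 in wildtype libraries. The heterozygous values of Ifnar2 lay above the other groups. Of the 6 list genes tested limma, edgeR and DESeq2 each called 0 against wildtype in either genotype. Over all genes limma called 2.74% to 7.1% in either direction of these comparisons, so that 0 of 6 does not set the list apart. At an unadjusted p under 0.05, 2 of the 6 passed in knockout (1 lower, 1 higher) and 2, both higher, in heterozygous libraries. Between knockout and heterozygous libraries each tool called 1 of the 6 lower, and limma gave 3 lower at an unadjusted p under 0.05. The gene called by limma was Il10rb, a chain of the type III receptor, at -0.46 ± 0.10 (adjusted p = 0.0129).

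Of 20 tested transducers, which relay signals from sensors and receptors, 3 were lower in knockout than in wildtype libraries, 4 higher in heterozygous than in wildtype libraries and 10 lower in knockout than in heterozygous libraries. The shares over all genes tested were 7.1%, 5.33% and 8.09% in these comparisons, and they hold for the lists that follow too. The falls in knockout included Irf8, a factor of myeloid cells, at -1.70 ± 0.22 (limma, adjusted p = 0.000933), and Tlr7, an endosomal RNA receptor, at -1.29 ± 0.13 (0.000271), both genes of immune cells. In heterozygous libraries the higher genes included Tlr7, Irf1 and Myd88, by 0.85 ± 0.13, 0.63 ± 0.15 and 0.57 ± 0.10 (adjusted p 0.00431, 0.0377 and 0.00677). The median log2 change of the transducers was -0.19 in knockout and 0.23 in heterozygous libraries, against -1.0 and 0.93 for the 39 genes.

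Of 12 tested inhibitors of the pathway, Socs2 and Ptpn6 were lower in knockout than in wildtype libraries and Samhd1, a nucleotide hydrolase, was higher, by 0.39 ± 0.08 (limma, adjusted p = 0.0148). Ptpn6 and Samhd1 were higher in heterozygous libraries, and 4 of the 12 were lower in knockout than in heterozygous libraries. Among 45 tested further interferon-induced genes, 20 were lower and 2 higher in knockout, and 19 higher and 1 lower in heterozygous than in wildtype libraries. Over all genes tested, 5.42% were called higher in knockout and 2.74% lower in heterozygous than in wildtype libraries. The 2 and 1 called here were near these shares, which hold for the inhibitors too. The median log2 changes of the 45 genes were -0.61 and 0.76, and 33 were lower in knockout than in heterozygous libraries. Slfn5 moved like the module, at 24.5 and 14.7 in knockout, 235 and 257 in heterozygous, and 64.2 and 54.4 in wildtype libraries. Apobec3, a cytidine deaminase, did not: it was 208 and 197 in knockout, 301 and 302 in heterozygous, and 126 and 114 in wildtype libraries. It was higher than wildtype in both, by 0.75 ± 0.13 in knockout (limma, adjusted p = 0.00556) and 1.32 ± 0.13 in heterozygous libraries (0.000495). Pml was the other gene higher in knockout, and Ifi30 the one lower in heterozygous libraries. Of 13 tested genes of MHC class I antigen presentation, 5 were lower in knockout and 8 higher in heterozygous than in wildtype libraries, with medians of -0.50 and 0.68, and 11 were lower in knockout than in heterozygous libraries.

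**Figure D4:**
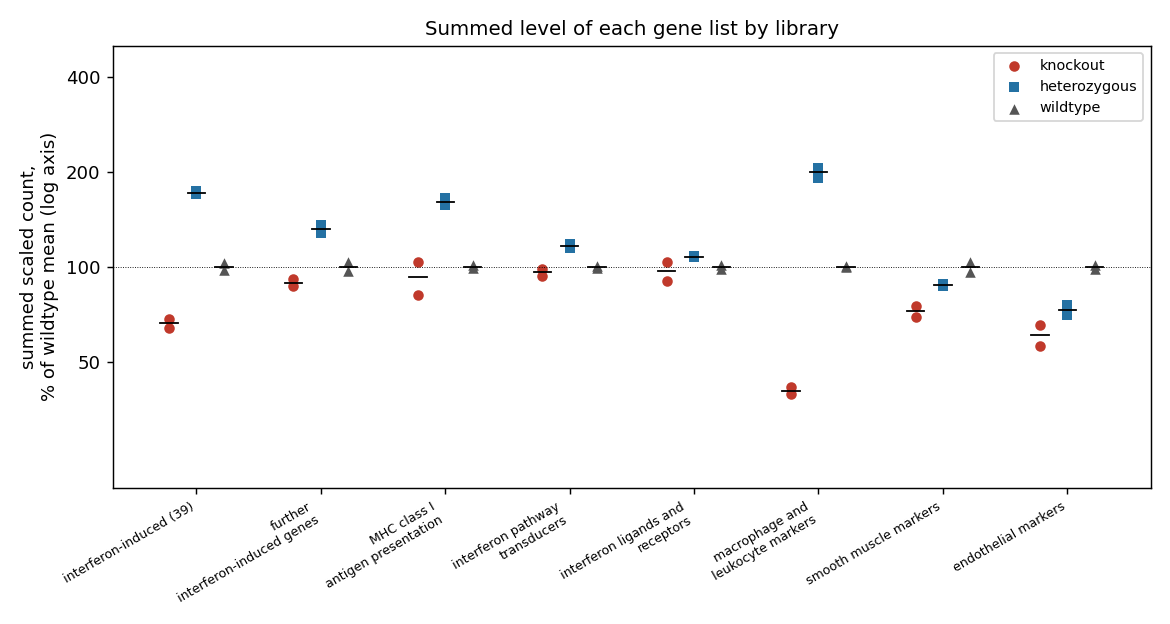
Summed scaled count of each gene list in every library, as percent of the wildtype mean, for knockout, heterozygous and wildtype libraries on a log axis, with 1 point per library and a bar at the group mean. The 39 interferon genes stood at 68.3% and 64.2% in knockout and 170% and 173% in heterozygous libraries, and the macrophage and leukocyte markers at 41.6% and 39.5% and at 206% and 192%.

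Summed levels set the lists side by side. The 39 genes were at 68.3% and 64.2% of the wildtype mean in knockout and at 170% and 173% in heterozygous libraries. Abundant genes weigh most in such a sum. On the ratio of means to wildtype, the median member stood at 0.50 in knockout and 1.99 in heterozygous libraries. The oligoadenylate synthetase members were at 33.9% and 32.6% in knockout and at 348% and 329% in heterozygous libraries. The leukocyte markers stood at 41.6% and 39.5% in knockout and at 206% and 192% in heterozygous libraries, moving in the same directions as the module. The smooth muscle markers, by contrast, were below wildtype in both, at 75.3% and 69.1% in knockout and 88.3% and 86.7% in heterozygous libraries.

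Gene by gene, the leukocyte markers' ratio of knockout over wildtype means ran between 0.0236 (Aif1) and 0.529 (Cd68), with a median of 0.359. In that range lay 22 interferon genes, and 17 were above it. For heterozygous over wildtype the markers ran between 0.768 (Cx3cr1) and 2.92 (Mrc1), with a median of 1.82. There 35 interferon genes lay within the range and 4 above it, which were Ifit1, Oasl2, Oas3 and Rtp4. For knockout over heterozygous 27 lay within the range and 12 above. What part of the interferon gene changes came with the markers was not tested.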

How the data were processed

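RNA came from an RNeasy Micro kit and the sequencing libraries from an Illumina TruSeq kit, per the labels' protocols. The mm9 build and the tools DESeq 1.16.0, HTSeq 0.5.4p3 and TopHat2 2.0.4 are named in the submitters' processing notes. The strand rule and annotation are not given in the sources used here. The deposited signal values are read counts divided by 1 size factor per library: 100% of values came out as whole reads within 0.001 read. The authors' RPKM values are group means. Depth was 17323962 to 28123670 reads in genes per library. The floors of 3 reads cover counting error only. The ± values are standard errors of the limma fit and come from the spread between libraries.

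Genes with a scaled count of 10 or more in 2 or more of 6 libraries were kept, 15781 genes. They were fitted with limma 3.58.1 (R 4.3.3) on log2(value + 1), all 3 groups together, without a replicate block. Benjamini-Hochberg adjustment ran over all genes at 0.05. Each gene had 1 variance for all groups, although the knockout libraries differed most from each other. Chi-square per gene against counting error was 23.5 between knockout, 3.75 between heterozygous and 5.07 between wildtype libraries. It covered genes with 20 or more summed reads. The fit was tested on data simulated with equal spread in all groups, which does not cover the wider spread between knockout libraries. Alternatives included other pseudocounts, filters and scalings, edgeR 4.0.16 and DESeq2 1.42.0 on the recovered reads, a replicate block and each library left out. All 39 genes may be named; a log2 change is given only where a gene was called. From the other lists, called genes and the smallest p-values were named. Members and lists were chosen with earlier results of these data known. Promoter windows are RefSeq's on GRCm38.p6, matched by symbol. Listed symbols that matched no row, such as Spi1 and Ifi27, were not analysed here. Values of 1 further listed gene are not reported here.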

Additional observations from a re-analysis of the deposited data

How the results depend on the processing

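No member changed direction in any called comparison under the alternatives run, 17 for each but Cmpk2, Mx2, Rsad2 and Zbp1, which had 16 because the filter of 50 removed them, and the count called in the opposite direction was 0 in each. Against 29 genes lower in knockout than in wildtype libraries, 27 higher in heterozygous than in wildtype libraries and 35 lower in knockout than in heterozygous libraries, edgeR on recovered reads called 29, 30 and 35, and DESeq2 28, 29 and 35. Other settings gave 23 to 30, 17 to 35 and 31 to 36. The shares of all genes tested that these settings called were 4.45% to 8.56%, 3.10% to 11.2% and 5.09% to 9.57%. The 31 came from the filter of 50, under which only 33 members were tested. The count in heterozygous libraries fell to 17 with no mean trend, against 3.81% of all genes, and the cause was not tested. Leaving out 1 library gave 16 to 33, 9 to 35 and 33 to 37, with fits that assume that a lone library varies like the other groups. Without wildtype library 1, fewer members and also fewer of all genes were called lower in knockout than in wildtype libraries. The same held for members and genes called higher in heterozygous libraries when any one heterozygous or wildtype library was left out. Labels state no pairing by replicate number. With the replicate number as a block the counts were 30, 29 and 36, and deviations of same-numbered libraries correlated at 0.199 between knockout and wildtype, 0.168 between heterozygous and wildtype and 0.139 between knockout and heterozygous libraries over 15781 genes. Oasl1, Mx1 and Mx2 rested on few reads, so that differences in them may not be detectable at this depth.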
